A study of Rattus norvegicus with 24 samples.

Results

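Expression of the hypoxia-inducible transcription factor gene Hif1a and of 4 genes that it is known to activate, Vegfa, Ldha, Slc2a1 and Hk2, was examined in rat neurospheres (NSps) exposed to 1 Gy of radiation, with and without Noggin or ascorbic acid. The 5 genes were taken by their Ensembl identifiers from the 16478 genes of the deposited expression table, and all 5 were present: ENSRNOG00000008292 (Hif1a), ENSRNOG00000019598 (Vegfa), ENSRNOG00000013009 (Ldha), ENSRNOG00000007284 (Slc2a1) and ENSRNOG00000006116 (Hk2). All 5 also passed the filter on low values in every comparison. Averaged over the 3 pairs of groups that differ in radiation, Vegfa, Slc2a1 and Hk2 were lower after radiation, and Hk2 was also lower with ascorbic acid. The results for Slc2a1 with radiation and for Hk2 with ascorbic acid depended on single samples. In the single pairs before batch correction, only the fall of Hk2 with Noggin passed the thresholds used here. That result, too, depended on single samples. None of the 5 genes passed the thresholds with radiation in NSps without an agent or with ascorbic acid. Ascorbic acid also could not be told apart from the numbering of the samples. Within each irradiated group, however, 2 of the 4 samples had far less Vegfa than the other 2, and Ldha and Slc2a1 split between the same samples.

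HIF-1 is a dimer of an oxygen-regulated subunit, encoded by Hif1a, and a constitutive partner. When oxygen is plentiful, hydroxylases that use oxygen, iron and ascorbate mark the HIF-1α protein for destruction, so the factor is controlled mainly as a protein and the level of Hif1a mRNA is not a measure of its activity. Its targets include Vegfa, a secreted growth factor for blood vessels that also acts on neural progenitors, and genes for the uptake and breakdown of glucose, which neural progenitor cells use heavily: Slc2a1 encodes the glucose transporter GLUT1, Hk2 the hexokinase that traps glucose as glucose 6-phosphate, and Ldha a subunit of the lactate dehydrogenase that turns pyruvate into lactate.

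NSps are free-floating spheres formed by neural progenitor cells (NPCs), here from the brains of Sprague Dawley rat fetuses at embryonic day 15, grown with epidermal and fibroblast growth factors. All groups shared this culture, and 4 samples of each of 6 groups were sequenced: untreated controls (C), Noggin at 5 µM (N) and ascorbic acid at 200 µM (A), each without radiation or with 1 Gy of X-rays on day 3 after seeding (CGy, NGy and AGy). The study's results place RNA extraction a week after irradiation. Its methods speak of culture for up to a week and of irradiation on day 3, so the interval is uncertain. Noggin is a secreted inhibitor of bone morphogenetic proteins, and both agents were given before and after radiation. The comparisons address how radiation changes NSps and whether either agent alters that response. No source used here states whether the samples of a group were separate cultures or how many fetuses each holds, so p-values measure only the spread between these samples. In bulk samples of spheres, fewer cells that express a gene and less RNA per cell cannot be told apart.

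Expression was given as TPM, a relative abundance of transcripts scaled by their length, so levels of different genes can be set side by side. The TPM of the listed genes summed to between 643344 and 655289 in the NGy and AGy samples and to between 605633 and 649751 in the others, and rescaling each sample to 1000000 would multiply the mean levels given here by 1.53 to 1.62. Between 9372 and 9720 genes reached 1 TPM in 23 of the 24 samples, against 8627 in the control sample MO2, which the study removed as an outlier; MO2 is shown here but left out of group means and tests. Its Hif1a level was 30.9 TPM, against 76.8 to 98.7 TPM in the other 23 samples, whereas its Vegfa, Ldha, Slc2a1 and Hk2 levels were within the range of the other controls. In the numbers of the sample titles, all A and AGy samples precede all N, CGy and NGy samples, and 1 control is numbered next to the former without it being known which column it is, so ascorbic acid and whatever this numbering stands for cannot be told apart. The defining markers of NPCs were not checked, because the gene identifiers could not be paired with symbols here.

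A stretch just upstream of an annotated start is shown for each of the 4 target genes because the genes' levels moved together between samples, as described below. Each is the 250 bases before the start in the RefSeq annotation of GRCr8, on the gene's strand, and capitals mark the core of the sequence that HIF-1 is known to recognise, ACGTG or GCGTG, on either strand (CACGT or CACGC when read on the other strand), with overlapping matches joined. The windows are chr1:106507842-106508091 on the plus strand (Ldha), chr5:138002272-138002521 on the plus strand (Slc2a1), chr9:22452604-22452853 on the plus strand (Vegfa) and chr4:116841276-116841525 on the minus strand (Hk2).
Ldha: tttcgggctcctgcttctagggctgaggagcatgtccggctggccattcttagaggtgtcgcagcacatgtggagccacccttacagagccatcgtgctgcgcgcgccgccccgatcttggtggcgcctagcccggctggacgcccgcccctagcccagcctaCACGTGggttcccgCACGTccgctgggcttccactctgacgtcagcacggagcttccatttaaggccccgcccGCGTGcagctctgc
Slc2a1: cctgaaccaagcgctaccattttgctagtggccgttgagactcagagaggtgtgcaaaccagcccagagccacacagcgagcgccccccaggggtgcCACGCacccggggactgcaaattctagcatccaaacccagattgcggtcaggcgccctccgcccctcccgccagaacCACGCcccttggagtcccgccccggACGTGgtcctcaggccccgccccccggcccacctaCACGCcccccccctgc
Vegfa: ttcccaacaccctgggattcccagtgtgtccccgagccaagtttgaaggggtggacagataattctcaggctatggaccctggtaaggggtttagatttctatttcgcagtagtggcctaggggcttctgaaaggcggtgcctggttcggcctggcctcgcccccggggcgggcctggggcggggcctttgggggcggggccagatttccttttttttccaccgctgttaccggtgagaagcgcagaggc
Hk2: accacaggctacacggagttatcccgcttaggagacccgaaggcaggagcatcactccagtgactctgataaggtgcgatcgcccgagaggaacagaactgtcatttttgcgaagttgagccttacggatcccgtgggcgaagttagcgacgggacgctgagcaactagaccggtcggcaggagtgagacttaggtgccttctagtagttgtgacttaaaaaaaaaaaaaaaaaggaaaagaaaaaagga

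The Ldha window held 3 separate stretches with a core, 1 of them the palindrome CACGTG, which reads the same on both strands. The Slc2a1 window held 4, and the Vegfa and Hk2 windows held 0. A second window annotated for Vegfa, at chr9:22460028-22460277 downstream of the start used here, also held 0 and is not shown. Of 33469 windows of the same length upstream of rat genes, 36.7% held at least 1 core (16.6% ACGTG and 25.9% GCGTG), 4.30% held 3 or more stretches and 1.32% held 4 or more. A match is only a run of letters, and its absence says only that these letters were not in this window. The windows' GC content ranged from 49.6% in Hk2 to 68.4% in Slc2a1. Hif1a, whose mRNA did not follow the target genes within groups, is not shown. Its window held 2 such stretches.

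The regulator, Hif1a, was expressed at 76.8 to 98.7 TPM in the 23 samples. It was measured at 97.5, 96.0 and 92.1 TPM in the C samples and at 85.5, 85.4, 85.6 and 83.1 TPM in the CGy samples. All CGy samples were below all C samples. With Noggin the values were 96.0, 90.7, 98.7 and 91.7 TPM without radiation and 87.8, 80.1, 83.4 and 81.6 TPM with it, again without overlap. With ascorbic acid they were 98.6, 81.8, 85 and 91.2 TPM without radiation and 77.4, 82.9, 77.9 and 76.8 TPM with it, and these groups overlapped. Of all genes tested, 5.94% were lower without overlap in CGy than in C and 12% in NGy than in N. The order of the group means was C (95.2 ± 2.79 TPM, SD, n = 3), N (94.3 ± 3.71, n = 4), A (89.1 ± 7.43, n = 4), CGy (84.9 ± 1.22, n = 4), NGy (83.3 ± 3.33, n = 4) and AGy (78.7 ± 2.79, n = 4), with overlapping ranges between all neighbours in that order.

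The secreted factor Vegfa was abundant in unirradiated NSps. It was measured at 867, 489 and 603 TPM in C, at 879, 1172, 741 and 1013 TPM in N and at 804, 900, 892 and 668 TPM in A. In CGy the samples MO13 and MO14B had 660 and 916 TPM, and MO15 and MO16 had 94.7 and 101 TPM. In NGy, MO17 and MO18 had 515 and 680 TPM, and MO19 and MO20 had 116 and 130 TPM. The CGy samples thus reached from below every unirradiated sample to above every control, whereas all NGy samples were below all N samples. In AGy, MO22 and MO23 had 691 and 673 TPM, and MO21 and MO24 had 260 and 311 TPM. The AGy samples overlapped with A, and their lowest value was above those of MO15, MO16, MO19 and MO20. The group means were 951 ± 184 TPM in N, 816 ± 108 in A, 653 ± 194 in C, 484 ± 230 in AGy, 443 ± 412 in CGy and 360 ± 282 in NGy (SD, n = 3 in C and 4 elsewhere), and neighbours in this order overlapped.

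The lactate dehydrogenase gene Ldha had the highest level of the 5 genes. It was measured at 1523, 1131 and 1637 TPM in C, at 1606, 1612, 1322 and 1507 TPM in N and at 1492, 1602, 1333 and 1336 TPM in A. In CGy it was measured at 1437, 1639, 703 and 661 TPM in MO13, MO14B, MO15 and MO16, and in NGy at 1211, 1387, 749 and 744 TPM in MO17 to MO20. The 2 lowest samples of each group were those with the least Vegfa. The AGy samples MO21 to MO24 had 1023, 1346, 1349 and 925 TPM, with the lowest values again in MO21 and MO24. The means of the groups followed the same order as for Vegfa, from 1512 ± 135 TPM in N to 1023 ± 327 TPM in NGy (SD, n = 4 each), and all neighbouring groups overlapped.

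The glucose transporter gene Slc2a1 was measured at 107, 60.6 and 44.9 TPM in C, at 119, 133, 96.5 and 140 TPM in N and at 56.1, 62.2, 66.2 and 51.0 TPM in A. All A samples were below all N samples, and the controls overlapped with both. In CGy it was measured at 108, 115, 14.0 and 18.5 TPM in MO13, MO14B, MO15 and MO16, and in NGy at 62.4, 82.6, 18.4 and 22.9 TPM in MO17 to MO20. In AGy the values were 19.4, 51.7, 40.7 and 20.9 TPM in MO21 to MO24. NGy did not overlap with N, whereas CGy overlapped with C and AGy with A. The order of the means was N (122 ± 19.2 TPM), C (70.9 ± 32.4), CGy (63.9 ± 55.2), A (58.9 ± 6.70), NGy (46.6 ± 31.1) and AGy (33.2 ± 15.7; SD, n = 3 in C and 4 elsewhere), with overlap between all neighbours.

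The hexokinase gene Hk2 had the lowest level of the 5 genes. It was measured at 41.0, 24.6 and 17.1 TPM in C, at 43.2, 48.9, 36.1 and 52.0 TPM in N and at 17.9, 13.8, 14.8 and 9.96 TPM in A. The A samples were all below the N samples, and overlapped with C in the control MO4 alone. In CGy it was measured at 34.2, 34.1, 6.82 and 8.16 TPM in MO13, MO14B, MO15 and MO16, and in NGy at 19.1, 23.8, 7.01 and 9.32 TPM in MO17 to MO20. The AGy samples MO21 to MO24 had 7.18, 7.91, 6.53 and 3.59 TPM. AGy was therefore low throughout, below all A samples and without the split seen for Vegfa. The order of the means was N (45.1 ± 6.98 TPM), C (27.6 ± 12.2), CGy (20.8 ± 15.4), NGy (14.8 ± 7.95), A (14.1 ± 3.29) and AGy (6.30 ± 1.90; SD, n = 3 in C and 4 elsewhere), and A and AGy were the only neighbours without overlap.

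**Figure D1:**
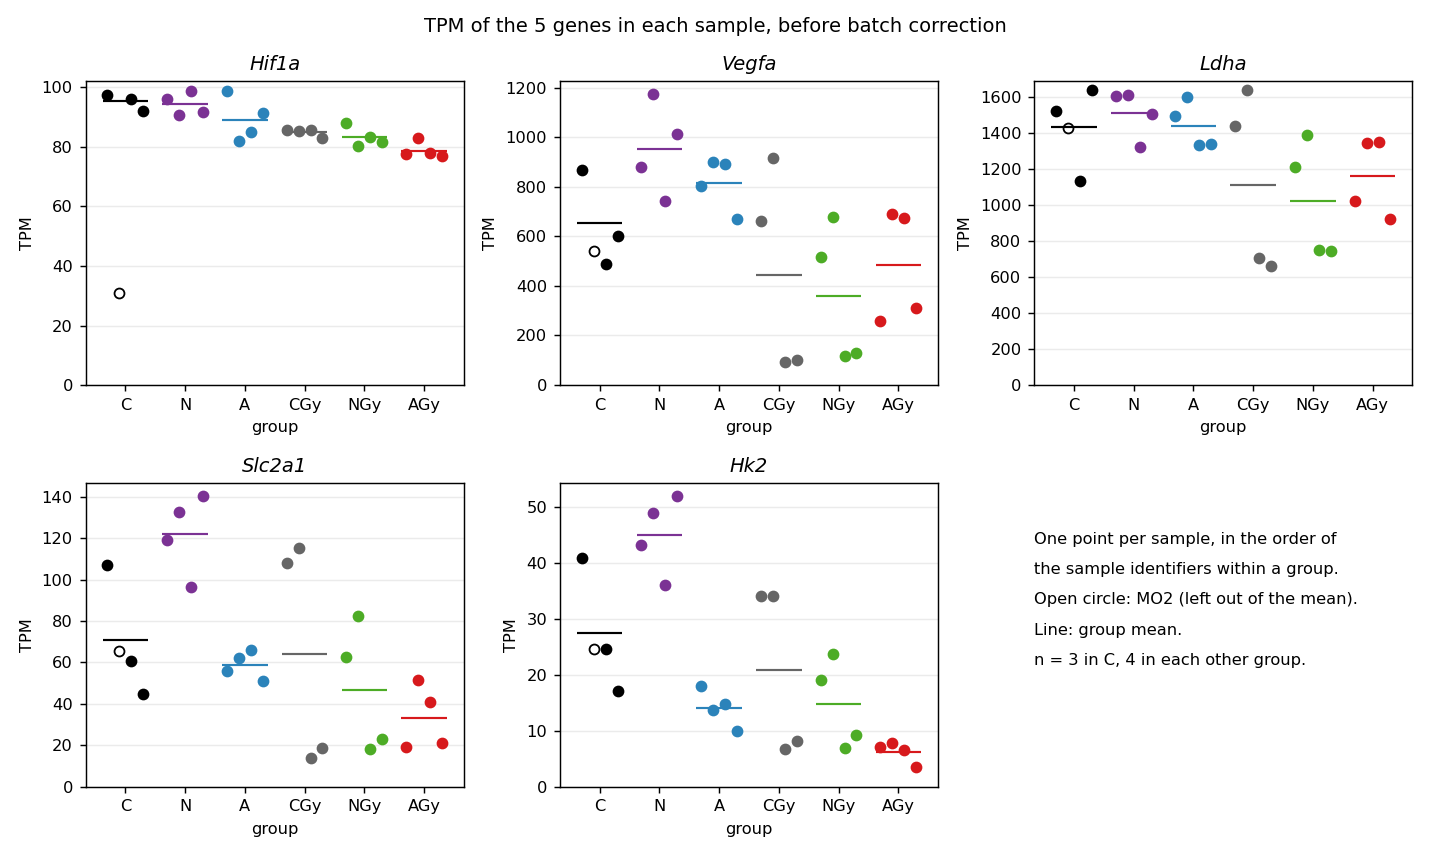
TPM of Hif1a, Vegfa, Ldha, Slc2a1 and Hk2 in each sample (vertical axes, from 0) by group (horizontal axes); points are samples, lines are group means without MO2 and the open circle is MO2. In each irradiated group 2 of 4 samples are low in Vegfa, Ldha and Slc2a1, down to 94.7 TPM of Vegfa in CGy, whereas Hif1a stays between 76.8 and 98.7 TPM in all samples but MO2.

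Pooled over the groups, the 4 target genes varied between samples of the same group more than most genes did, and Hif1a less. The SD between samples of the same group on the log2(TPM + 1) scale, pooled over the groups, was 0.99 for Vegfa, larger than for 99.5% of the 10134 genes that passed the filter, 0.88 for Slc2a1 (99.1%), 0.68 for Hk2 (97.4%) and 0.39 for Ldha (87.0%). For Hif1a it was 0.07, larger than for 1.65% of genes, and the median gene had 0.18. The spread was not alike in all groups. For Vegfa the SD was 1.73 in CGy, 1.31 in NGy and 0.73 in AGy, against 0.42 in C, 0.28 in N and 0.20 in A. For Ldha it was 0.68 in CGy, 0.47 in NGy and 0.28 in AGy, against 0.28 in C and 0.13 in both N and A. The samples with little Vegfa also had the fewest genes at 1 TPM or more in their groups: 9372 and 9437 in MO15 and MO16 against 9591 and 9565 in the other CGy samples, 9386 and 9409 in MO19 and MO20 against 9497 and 9494 in NGy, and 9477 and 9634 in MO21 and MO24 against 9720 and 9642 in AGy. The part of this difference in the low levels was not tested. In CGy and NGy the samples with little Vegfa were those with the later identifiers, whereas in AGy they were MO21 and MO24. The study's methods report potential batch effects in a principal component analysis. Whether the split goes with a batch was not tested.

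The 4 target genes rose and fell together across samples, and Hif1a did not follow them within groups. Over the 23 samples, Pearson's r of log2(TPM + 1) with Vegfa was 0.97 for Ldha, 0.89 for Slc2a1, 0.66 for Hk2 and 0.41 for Hif1a. Ranked by r with Vegfa among the 10133 other genes, Ldha was 5th, Slc2a1 was 46th and Hk2 was 441st. Slc2a1 and Hk2, the transporter and the enzyme of the first step after uptake, had r = 0.90 with each other. Hif1a had r = 0.69 with Hk2, 0.55 with Slc2a1 and 0.42 with Ldha, so its r with Hk2 was not below that of Vegfa with Hk2. These values include the differences between groups. With the group means removed, r was 0.96 between Vegfa and Ldha, 0.98 between Vegfa and Slc2a1, 0.90 between Vegfa and Hk2 and 0.94 between Slc2a1 and Hk2, and between 0.06 and 0.16 for Hif1a with the 4 targets. The correlations are descriptions and no p is given. The samples fall into separate clusters in Vegfa, and the genes were measured in the same libraries with the same scaling. At r of 0.9 or more, Vegfa had 41 genes, Slc2a1 36, Ldha 31 and Hk2 27, whereas Hif1a had 0. The genes most like Vegfa were ENSRNOG00000014882 (r = 0.99) and ENSRNOG00000011923 (r = 0.98), which could not be named here.

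**Figure D2:**
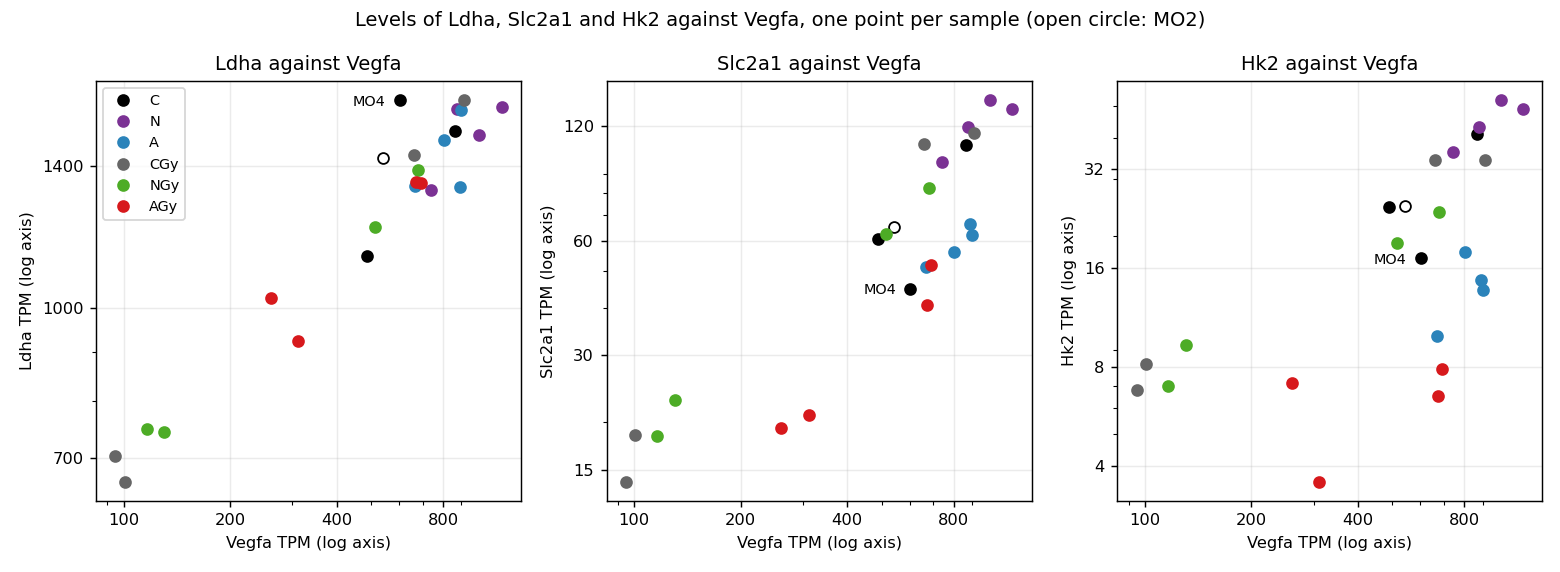
TPM of Ldha, Slc2a1 and Hk2 (vertical, log axes) against TPM of Vegfa (horizontal, log axis), with 1 point per sample coloured by group and MO2 as an open circle. Ldha follows a common line in all groups, whereas the A and AGy samples and the control MO4 have less Slc2a1 for their Vegfa than the other samples, and the A and AGy samples have less Hk2 for their Vegfa.

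Relative to Vegfa, Hk2 was lower in all ascorbic acid samples than in all others, and Slc2a1 was lower than in all others but the control MO4. For each 100 TPM of Vegfa, there were 6.91 to 7.63 TPM of Slc2a1 in A (median 7.20) and 6.05 to 7.49 in AGy (median 7.08), against 11.3 to 13.9 in N, 12.6 to 18.3 in CGy and 12.1 to 17.6 in NGy. The controls had 12.4, 12.4 and, in MO4, 7.44. For Hk2 there were 1.49 to 2.23 TPM per 100 TPM of Vegfa in A and 0.970 to 2.76 in AGy, against 4.17 to 5.13 in N, 3.73 to 8.11 in CGy and 3.50 to 7.16 in NGy, and 4.73, 5.03 and, in MO4, 2.85 in the controls. Ldha gave 149 to 200 TPM in A and 138 to 183 in N, with overlap. These ratios were chosen after the values were seen and carry no test. One control sample, MO4, was near the ascorbic acid samples in both ratios. Ascorbic acid cannot be told apart here from the numbering of the samples, and which column is the control numbered next to those samples is not known.

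The average effect of radiation over the 3 pairs of groups was a fall of the target genes. Changes are differences of mean log2(TPM + 1), which understate those of low genes, and a gene was called when limma's Benjamini-Hochberg adjusted p over all genes was at most 0.05 and the change at least 1.5-fold. Vegfa changed by -1.29 (SE 0.39, 95% confidence interval -2.10 to -0.48, adjusted p = 0.0246), Slc2a1 by -1.05 (SE 0.35, interval -1.78 to -0.33, adjusted p = 0.0362) and Hk2 by -1.13 (SE 0.27, interval -1.69 to -0.57, adjusted p = 0.00669). These 3 of the 5 genes were called lower, against 1.07% of the 10134 genes tested (2.17% in either direction). Because the target genes rose and fell together across samples, their calls here and below are not independent of each other. Ldha, with a change of -0.47 (SE 0.15, adjusted p = 0.0357), and Hif1a, with -0.17 (SE 0.03, adjusted p = 0.00243), passed the p threshold with changes smaller than 1.5-fold. Hk2 was called in all 23 fits that left out 1 sample and Vegfa in 22, with an adjusted p of 0.0504 without MO1. Slc2a1 was called in 11 of the 23, its adjusted p reaching 0.0787, and was not called with MO2 included (adjusted p = 0.0535) or without the filter on low values (adjusted p = 0.0544).

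Pair by pair, the changes with radiation were negative for all 5 genes in each of the 3 pairs, and 1 of them was called. In NGy against N, Hk2 changed by -1.68 (SE 0.35, interval -2.48 to -0.88, adjusted p = 0.0218), and it was the only member among the 2.91% of genes called in that pair (1.98% lower). Slc2a1 (-1.62, adjusted p = 0.0502), Vegfa (-1.79, adjusted p = 0.0733), Ldha (-0.62, adjusted p = 0.0865) and Hif1a (-0.18, adjusted p = 0.0733) missed the threshold, although Slc2a1 was called after rescaling every sample to the same total (adjusted p = 0.048) or with a variance trend (adjusted p = 0.032). The Hk2 call was lost without MO6, MO8 or MO20, and Vegfa, Ldha and Slc2a1 were called without MO18. Without overlap of the samples, 4 of the 5 genes were lower in NGy than in N (all but Ldha), against 12% of all genes.

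In CGy against C, none of the 5 genes was called, and 0.0204% of all genes tested were. The change of Vegfa was -1.20 with an interval of -3.24 to 0.84 (adjusted p = 0.495), that of Slc2a1 was -0.62 (-2.54 to 1.30, adjusted p = 0.698), that of Hk2 was -0.64 (-2.14 to 0.85, adjusted p = 0.606), that of Ldha was -0.47 (-1.31 to 0.38, adjusted p = 0.513) and that of Hif1a was -0.16 (-0.34 to 0.01, adjusted p = 0.347). The intervals of the 4 targets hold both falls and rises. In AGy against A, limma called 0 genes of 9859, with 1256 at an unadjusted p under 0.05, the 5 genes' smallest adjusted p being 0.164 for Hk2. There Hk2 changed by -1.07 (interval -1.60 to -0.53), Slc2a1 by -0.92 (-1.60 to -0.24), Vegfa by -0.88 (-1.61 to -0.14), Ldha by -0.33 (-0.65 to -0.0029) and Hif1a by -0.17 (-0.36 to 0.01). Hk2 alone was lower without overlap, as were 4.31% of all genes.

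**Figure D3:**
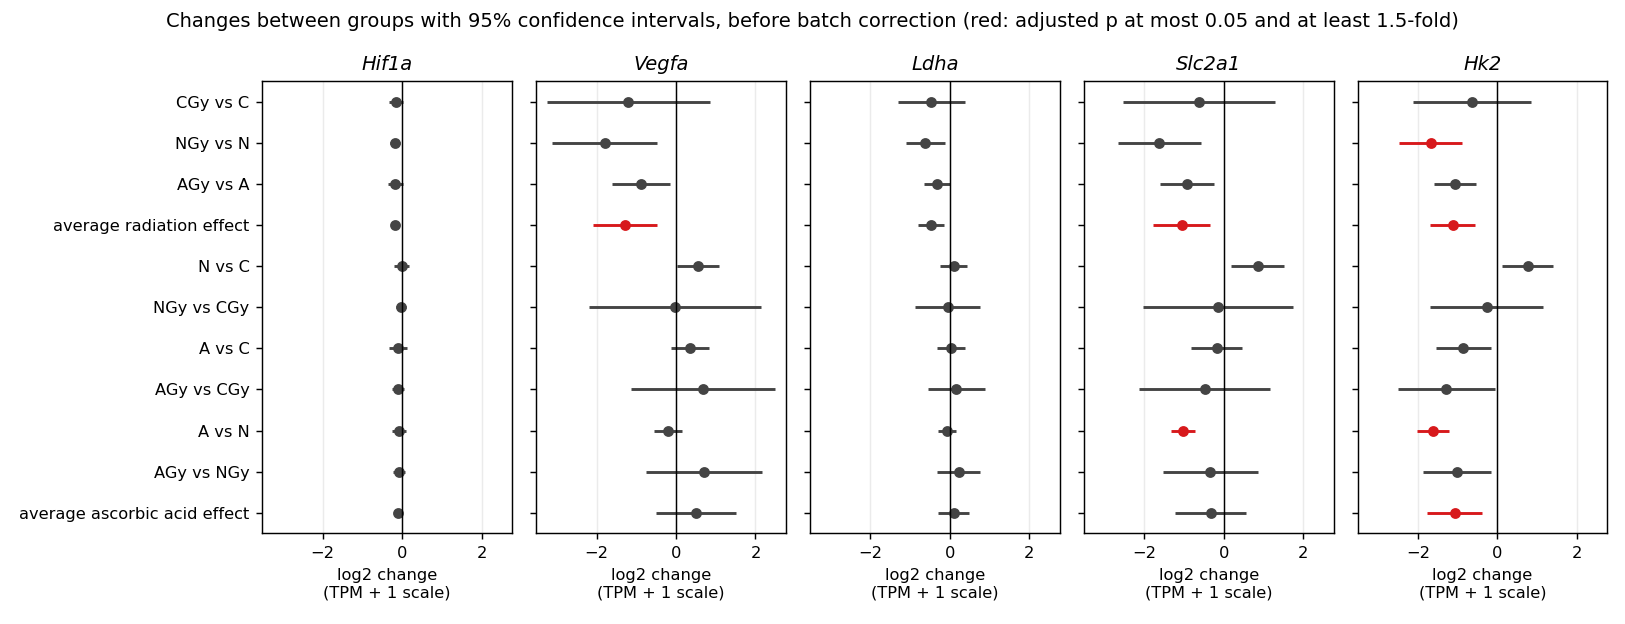
Change of each gene on the log2(TPM + 1) scale (horizontal axes, the same range in each panel) in the comparisons named on the left, from the deposited TPM without MO2; bars are 95% confidence intervals and red marks an adjusted p of at most 0.05 with at least a 1.5-fold change. Vegfa, Slc2a1 and Hk2 are red for the average of radiation, Hk2 for NGy against N and the average of ascorbic acid, and Slc2a1 and Hk2 for A against N.

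With ascorbic acid, averaged over NSps with and without radiation and relative to those without an agent, Hk2 changed by -1.07 (SE 0.33, interval -1.77 to -0.38, adjusted p = 0.0282). It was the 1 gene of the 5 that was called, against 1.23% of all genes called lower and 4.46% called in either direction. The call was kept in 9 of 15 fits without 1 sample and lost without MO1, MO3, MO12, MO13, MO14B or MO24, with adjusted p of up to 0.092. The Noggin samples, which also entered the estimate of the spread, were not left out in turn. For Vegfa the change was 0.51 (interval -0.49 to 1.52), for Ldha 0.09 (-0.30 to 0.49), for Slc2a1 -0.33 (-1.22 to 0.57) and for Hif1a -0.10 (-0.19 to -0.01), with adjusted p between 0.0953 and 0.768. In A against C alone Hk2 changed by -0.86 (interval -1.56 to -0.16, adjusted p = 0.323) and in AGy against CGy by -1.28 (-2.51 to -0.06, adjusted p = 0.139). None of the 5 genes was called in either pair, where 0.0203% and 6.42% of all genes were. Hif1a was lower without overlap in AGy than in CGy, as were 12.2% of genes.

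The 2 agents differed in the genes of glucose uptake and phosphorylation. In A against N, Slc2a1 changed by -1.03 (SE 0.13, interval -1.34 to -0.73, adjusted p = 0.00329) and Hk2 by -1.62 (SE 0.18, interval -2.02 to -1.22, adjusted p = 0.00259). These were 2 of the 5 genes, against 5.38% of all genes called lower in that pair (10.1% in either direction), and both were lower without overlap, as were 13.5% of all genes. Both calls were kept without each of the 8 samples in turn, and ascorbic acid cannot be told apart here from the numbering of the samples. With all 6 groups in 1 fit, which takes in the wider spread of the irradiated groups, the adjusted p of Slc2a1 was 0.206 and Hk2 was still called (adjusted p = 0.0142, against 5.02% of all genes called lower). Vegfa changed by -0.21 (interval -0.56 to 0.14), Ldha by -0.07 (-0.29 to 0.15) and Hif1a by -0.08 (-0.27 to 0.10), and these passed no threshold. After radiation, in AGy against NGy, 0 of the 5 were called against 8.96% of all genes: Hk2 changed by -1.01 (interval -1.86 to -0.15, adjusted p = 0.0925) and Vegfa by 0.70 (-0.74 to 2.15, adjusted p = 0.462).

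With Noggin, no change of the 5 genes was called. In N against C the changes of Slc2a1 (0.86, interval 0.20 to 1.52, adjusted p = 0.365), Hk2 (0.76, 0.12 to 1.40, adjusted p = 0.365) and Vegfa (0.56, 0.03 to 1.09, adjusted p = 0.389) were positive, while those of Ldha (0.09) and Hif1a (-0.01) were close to 0, in a pair where 0.0102% of genes were called. In NGy against CGy the 5 adjusted p were between 0.832 and 0.993, with an interval of -2.20 to 2.13 for Vegfa, and 0.392% of genes were called. Averaged over both, the adjusted p were 0.752 to 0.980, and 0.671% of genes were called. Whether an agent changed the response to radiation was tested as a difference of differences. For ascorbic acid it was 0.32 for Vegfa (interval -1.72 to 2.36), -0.30 for Slc2a1 (-2.22 to 1.61) and -0.42 for Hk2 (-1.91 to 1.06). For Noggin it was -0.59 for Vegfa (-2.97 to 1.78), -1.0 for Slc2a1 (-3.11 to 1.11) and -1.04 for Hk2 (-2.67 to 0.59). None of these was called, and of all genes 0.00996% and 0.01% were. The intervals do not show that the responses were alike.

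More of these genes were called after a batch correction that the authors applied in a second deposited table. When the correction was rebuilt from the uncorrected TPM, it came out as subtracting, from log2(TPM + 1), the leading 2 principal components of each sample's deviation from its group mean, which held 21.2% and 13.3% of the sum of squares of these deviations. It left the change between groups as it was and removed 94.6% of the sum of squares within groups for Vegfa, 92.8% for Slc2a1, 92.3% for Ldha and 81.4% for Hk2, against 39.0% for the median gene and 1.42% for Hif1a. Vegfa in CGy ran from 94.7 to 916 TPM before the correction and from 244 to 320 TPM after it, while that in C ran from 489 to 867 TPM before and from 504 to 729 TPM after. In CGy, MO15 was then no longer below MO14B (277 against 269 TPM). In AGy a smaller difference remained, with 409 and 360 TPM of Vegfa in MO21 and MO24 against 484 and 529 TPM in MO22 and MO23, and 1098 and 1007 TPM of Ldha against 1240 and 1253 TPM.

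**Figure D4:**
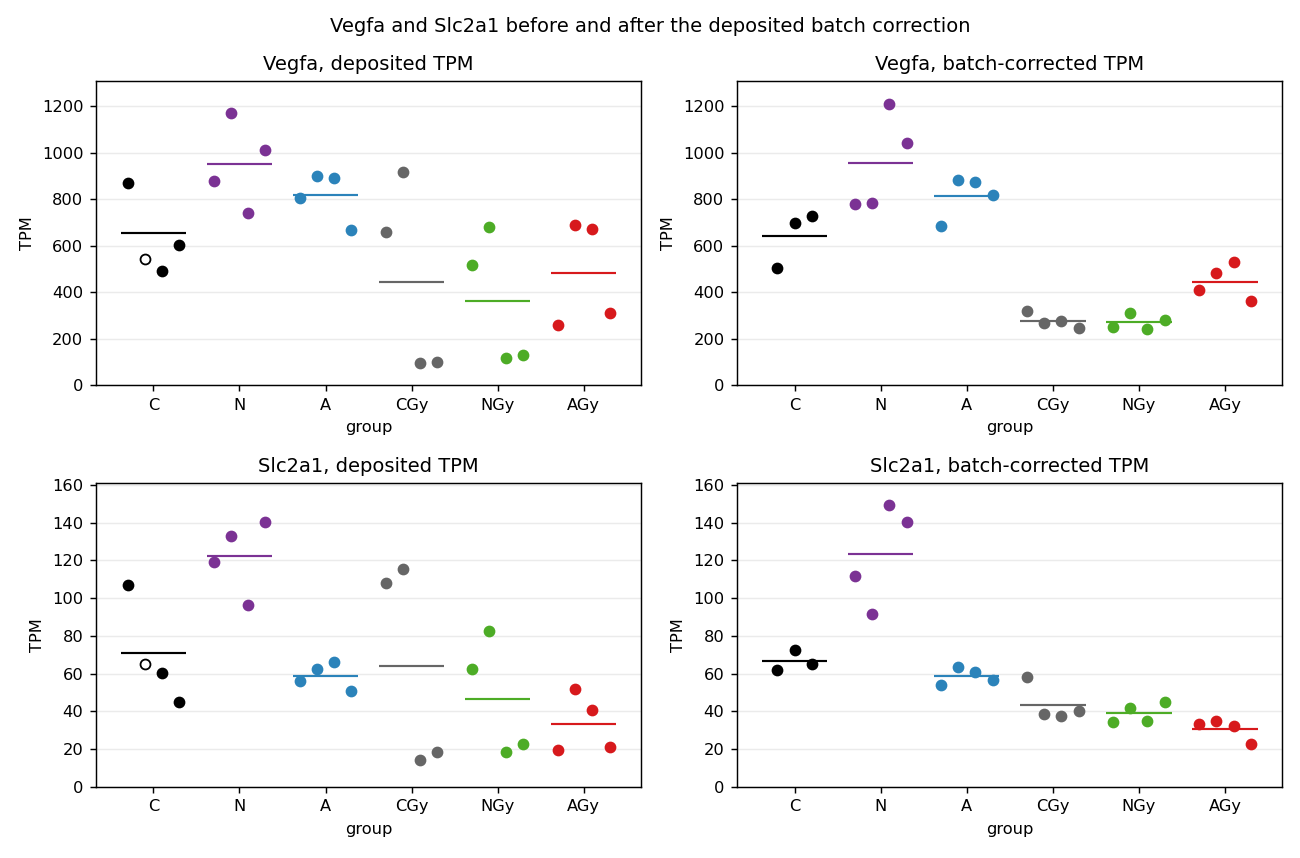
TPM of Vegfa and Slc2a1 in each sample (vertical axes, from 0) by group, in the deposited TPM (left, MO2 as an open circle) and after the deposited batch correction (right); lines are group means without MO2. In CGy, Vegfa ranges from 94.7 to 916 TPM on the left and from 244 to 320 TPM on the right.

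With the corrected values, limma called Vegfa (adjusted p = 0.00196), Slc2a1 (0.0248) and Hk2 (0.0459) lower in CGy than in C, 3 of 5 genes against 2.37% of all genes. The same 3 were called lower in AGy than in A (0.487% of all genes), and these and Ldha in NGy than in N (3.39%). Slc2a1 and Hk2 were called higher in N than in C (3.12%) and Hk2 lower in A than in C (0.468%). In AGy, Vegfa was called higher than in CGy (adjusted p = 0.00545; 4.68% of genes) and than in NGy (adjusted p = 0.00411; 6.12%), and Hk2 lower than in both (4.39% and 4.48%). The response to radiation with Noggin was called more negative for Slc2a1 and Hk2 than without it, among 16.6% of all genes called so, and none of the 5 was called for ascorbic acid (11.2% of all genes were called in either direction). In A against N (5.85%) and in the averages of radiation (1.36%) and ascorbic acid (1.65%), the same genes were called lower as before the correction. Hif1a was called in no comparison. Since group membership enters the correction, it narrows the spread within groups, and these p-values are too small. When the 2 components were instead covariates in the fit of the uncorrected TPM, an alternative chosen after seeing the data, Vegfa and Hk2 were called lower in CGy than in C (2.09% of all genes), and 0 of the 5 genes in AGy against A (0.112% in either direction) or in A against C (0.0203%). The other member calls were those of the corrected table: 4 lower in NGy than in N (3.31%), 2 higher in N than in C (2.73%), 2 lower in A than in N (5.64%), Vegfa higher and Hk2 lower in AGy than in CGy (4.54% and 4.22%) and than in NGy (5.97% and 4.34%), and Slc2a1 and Hk2 in the interaction with Noggin (13.3% more negative). For the averages, the 3 calls for radiation (1.33%) and that of Hk2 for ascorbic acid (1.61%) were also kept. The components were taken from the same samples' deviations from their group means, so the p-values with them as covariates tend to be too small as well. What the 2 components stand for was not tested.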

How the data were processed

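Directional poly(A) RNA sequencing of 24 rat NSp samples was used. The submitters' processing notes name STAR 2.6.1 and kallisto, and the study's methods name rat genome build Rn7. TPM from kallisto were deposited by the authors for 24 samples. They also deposited a table of 23 samples, without MO2, after batch correction with NOISeq, whose values were treated as a score: each deposited value was multiplied by 2 to give the corrected TPM + 1, since genes at 0 TPM stood at 0.5. Columns carry the study's sample identifiers, whose groups come from the study's figures and, for MO2, its methods; which label entry each column belongs to could not be worked out. Columns left out numbered 0. Read counts cannot be had from TPM, so depth is unknown and only the spread between samples measures precision.

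Comparisons used lmFit and eBayes of limma 3.58.1 (R 4.3.3) on log2(TPM + 1) of the uncorrected table without MO2, with the samples of the pair in each fit, leaving out genes whose mean was below 1 TPM in all compared groups. Averages used all 6 groups in 1 fit with a shared estimate of the spread, and interactions used the groups they involve. The study's own tests were run on corrected values. P-values were Benjamini-Hochberg adjusted over all genes. On simulated data with 200 genes changed by 1 on the log2 scale, 80.4% were called in CGy against C, 84.4% in A against N, 73.0% in the interaction with ascorbic acid and 97.7% in the average of radiation, over about 9011 genes. The simulated noise was independent between genes and had the same SD in all groups. In the data, deviations were shared between genes, and the log2 SD of Vegfa was 1.73 in CGy against 0.42 in C. The simulated shares therefore do not give the power of the real comparisons.

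The named genes are the 5 members and the 2 genes most correlated with each. The members and lists were chosen with earlier results of these data known. The gene symbols are those of the members' list. Of 16478 identifiers, 0 matched the RefSeq GRCr8 gene list, so further pathway genes and cell type markers were not analysed here. Promoter windows came from RefSeq GRCr8, and figures from matplotlib 3.10.9. Alternatives were another pseudocount (0.1), no filter, rescaling to 1000000, quantile normalization, a variance trend, 1 fit of all 6 groups, the corrected table, MO2 included, no fold threshold, each sample left out and, chosen after seeing the data, the within-group components as covariates.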

Additional observations from a re-analysis of the deposited data

Results flagged for a closer look

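Within groups of 4 samples, 2 values of the 5 genes stood apart from the other 3 by more than Dixon's 95% limit, among 30 groups of values, in which chance alone gives about 1 in 20. Hif1a was at 30.9 TPM in the control MO2, against 92.1 to 97.5 TPM in the other controls. Hif1a was at 83.1 TPM in the CGy sample MO16, against 85.4 to 85.6 TPM in the other CGy samples, a gap that is small in size. The split of Vegfa, Ldha and Slc2a1 within irradiated groups, 2 samples against 2, is not of a kind that this test can pick out.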

How the results depend on the processing

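The counts of genes called, over all genes, were 2 in CGy against C, 284 in NGy against N, 0 in AGy against A, 1 in N against C, 2 in A against C, 38 in NGy against CGy, 632 in AGy against CGy, 1000 in A against N, 882 in AGy against NGy, 1 in each interaction, and 452, 68 and 220 for the averages of ascorbic acid, Noggin and radiation. In the same order and leaving out each sample in turn, they ranged over 1 to 6, 149 to 341, 0 to 2, 0 to 6, 2 to 6, 17 to 53, 268 to 636, 720 to 1109, 584 to 923, 0 to 2 and 0 to 3 for the interactions with ascorbic acid and Noggin, 236 (without MO3) to 758 (without MO4), 46 (MO4) to 117 (MO3) and 143 (MO4) to 326. The lowest counts came without MO15 (CGy against C, NGy against CGy), MO16 (AGy against CGy) and MO19 (NGy against N, AGy against NGy). In the batch-corrected table the count was 657 in CGy against C, 460 in NGy against N, 102 in AGy against A, 379 in N against C, 240 in A against C, 137 in NGy against CGy, 1126 and 2392 in the interactions with ascorbic acid and Noggin, and 134 for Noggin. With the components as covariates it was 586, 445 and 11 in CGy against C, NGy against N and AGy against A, 308 in N against C, 118 in NGy against CGy, 455 and 1880 in the interactions and 123 for Noggin. By adjusted p alone it was 1381 in NGy against N, 102 in NGy against CGy, 1217 in AGy against CGy, 2184 in A against N, 1955 in AGy against NGy, and 2004, 190 and 2190 for ascorbic acid, Noggin and radiation. With all 6 groups in 1 fit it was 14 in CGy against C, 20 in AGy against A, 49 in N against C, 69 in A against C and 0 in both interactions. With MO2 it was 0 in CGy against C, N against C, A against C and both interactions. In CGy against C it was 1 without a filter, with rescaling and with a variance trend; in N against C it was 2 with rescaling, 3 with the trend and 2 with the pseudocount of 0.1, which gave 5 in A against C, 3 in the interaction with ascorbic acid and 373 for radiation; that interaction had 0 without a filter and with the trend. Quantile normalization gave 1 in AGy against A and 0 in the interaction with Noggin. The split into higher and lower genes in NGy against N was 91 and 193, 122 and 133 with quantile normalization and 69 and 326 with rescaling; for radiation it was 112 and 108, and 103 and 190 with rescaling. The cause of these shifts was not tested.

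Of the 5 genes' changes, those that turned direction were not called. With MO2 included, Hif1a was 0.23 in CGy against C, 0.38 in N against C, 0.30 in A against C, and 0.10 and 0.18 for ascorbic acid and Noggin, while the median of all genes moved from 0.05 to 0.21 in CGy against C, 0.04 to 0.20 in N against C and 0.03 to 0.20 in A against C. Quantile normalization gave Ldha 0.0026 in A against N, -0.050 in the interaction with ascorbic acid and -0.055 for Noggin, and Hif1a 0.029 and 0.012 in the interactions with ascorbic acid and Noggin; rescaling gave Ldha -0.0027 for Noggin. Leaving out each sample in turn, Hif1a ranged from -0.038 to 0.0034 in N against C, -0.050 to 0.039 and -0.040 to 0.0094 in the interactions with ascorbic acid and Noggin. Ldha ranged from -0.067 to 0.20 in N against C, -0.14 to 0.13 in A against C, -0.27 to 0.17 in NGy against CGy, -0.047 to 0.39 in AGy against CGy, -0.071 to 0.37 and -0.36 to 0.077 in the interactions, -0.012 to 0.21 for ascorbic acid and -0.087 to 0.13 for Noggin. Slc2a1 ranged from -0.45 to 0.17 in A against C, -0.66 to 0.32 in NGy against CGy, -0.68 to 0.026 in AGy against NGy and -0.82 to 0.17 in the interaction with ascorbic acid. Vegfa ranged from -0.54 to 0.54 in NGy against CGy and -0.19 to 0.90 in that interaction, and Hk2 from -0.66 to 0.067 in NGy against CGy.

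No paired analysis was made because the table columns carry no replicate numbers and their identifiers do not state which samples of different groups belong together. TPM without counts do not show counting error, and with 3 or 4 samples a group and the spread of the irradiated groups, changes of about 1 on the log2 scale were not detectable for Vegfa and Slc2a1 in CGy against C.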

Other observations

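The genes whose levels were most like those of Hif1a over the 23 samples were ENSRNOG00000011014 (r = 0.90) and ENSRNOG00000001602 (r = 0.89), given as values without names.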
